A study of Mus musculus with 24 samples.

Results

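Genes of glucose uptake, glycolysis, lactate handling and glycogen turnover were followed in mouse hearts at 90 days of age, in 4 genotypes with 6 biological replicates each. Of 30 listed genes, 26 had at least 1 probe set annotated to that gene alone. Together they held 57 of the 45037 probe sets tested, and 15 of the 26 had more than 1. Gpi1, Eno1 and Pfkfb1 matched no probe set under this rule, and Gapdh matched only probe sets whose annotation also names other genes. All 4 stay out of every count.

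Non-transgenic mice (NTG) were compared with 3 kinds of transgenic mice. AC5 mice carried human AC5, the common name of adenylyl cyclase type 5, which makes cyclic AMP. GLY mice carried the human beta1-Gly389 cDNA and ARG mice the human beta1-Arg389 cDNA, polymorphic forms of the beta1-adrenergic receptor, which drives adenylyl cyclase in heart muscle. Each transgene was placed behind the alpha-myosin heavy chain promoter, which is active in cardiac myocytes. Whole hearts were extracted, so signal from other cells of the heart is included. Strain, sex and the number of founder lines behind each genotype are not stated in the labels, so a difference between genotypes may also be a difference between lines. The values are array signals expressed as a ratio to the NTG level, near 1 in NTG hearts. They show how a transcript changed but not how abundant it was. For this reason isoforms are compared by their changes only, and the defining markers of heart muscle could not be checked for presence.

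Glucose enters heart muscle through the insulin-responsive transporter Slc2a4 and the constitutive transporter Slc2a1. Hexokinase traps it as glucose phosphate, which passes through phosphofructokinase, aldolase, phosphoglycerate mutase and enolase to pyruvate, or is stored as glycogen. The adult heart draws most of its energy from fatty acids, and a shift towards glucose with re-expression of fetal isoforms is a known feature of hypertrophied hearts. Adrenergic signalling through cyclic AMP activates phosphorylase kinase, which activates glycogen phosphorylase, and it also acts on the bifunctional enzyme Pfkfb2 that sets the allosteric activator of phosphofructokinase.

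Arrays did not all lie equally close to the mean of their genotype, which is what limma's array weights score. Whether a low weight reflects array quality or real variation between hearts was not tested. By limma's array weights, GLY replicate 3 (0.312), GLY replicate 1 (0.354) and ARG replicate 1 (0.478) lay below 0.5. The next lowest was GLY replicate 2 (0.568), so the cut at 0.5 follows no clear gap. The mean SD of log2 values between hearts was 0.143 for NTG hearts, 0.1545 for AC5, 0.221 for GLY and 0.192 for ARG. The labels name no batch, but earlier work on these values showed that NTG replicates 1 to 3 and NTG replicates 4 to 6 each centre near 1. As the values are ratios to the NTG level, this does not by itself show 2 batches. Replicates 1 to 3 of every genotype are called the first set here and replicates 4 to 6 the second set, and values inside each are given where they matter. In ARG against NTG, 10 of 14 macrophage markers rose, with a median log2 change of 0.78, and none was called in GLY (unadjusted p under 0.05 for 2 of 14) or in AC5 (0 of 14). The mean log2 value over these markers ranged from -0.08 to 0.10 in NTG hearts and from -0.22 to 0.18 in AC5 hearts, and from -0.28 to 0.52 for GLY and 0.30 to 1.03 for ARG. Of 10 fibroblast markers 5 rose and 1 fell in ARG, and none was called in GLY or AC5 (unadjusted p under 0.05 for 3 in each). Of 10 endothelial markers 3 fell in ARG and 2 in GLY, with none called in AC5. Against NTG, 11.3% of all genes were called in ARG, 5.45% in GLY and 0.176% in AC5. In whole tissue, fewer cells of a type and less RNA per cell cannot be told apart.

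The set did not move as one. In ARG against NTG, 2 of the 26 genes rose (Slc2a1 and Pgam1) and 4 fell (Pfkm, Ldhd, Pygb and Phkb) at the 1 probe set chosen per gene, by limma at an adjusted p under 0.05. Of all 18193 genes, 11.3% were called in that comparison. The median log2 change of the members was 0.00, against -0.01 over all genes. In GLY against NTG, 3 members fell (Hk2, Ldhd and Phkb) and none rose, where 5.45% of genes were called. In AC5 against NTG, Ldhd alone fell, where 0.176% of genes were called. The member medians were 0.02 in GLY and -0.08 in AC5, against 0.02 and -0.01 over all genes. Over all 57 probe sets, 5 rose and 6 fell in ARG (9.67% of all probe sets called), 2 rose and 5 fell in GLY (5.08%), and 2 fell in AC5 (0.142%). The 3 comparisons share the NTG hearts and so are not independent. Counting any probe set, 9 members changed in at least 1 of them, namely Slc2a1, Hk1, Hk2, Pfkm, Pfkfb2, Pgam1, Ldhd, Pygb and Phkb.

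**Figure D1:**
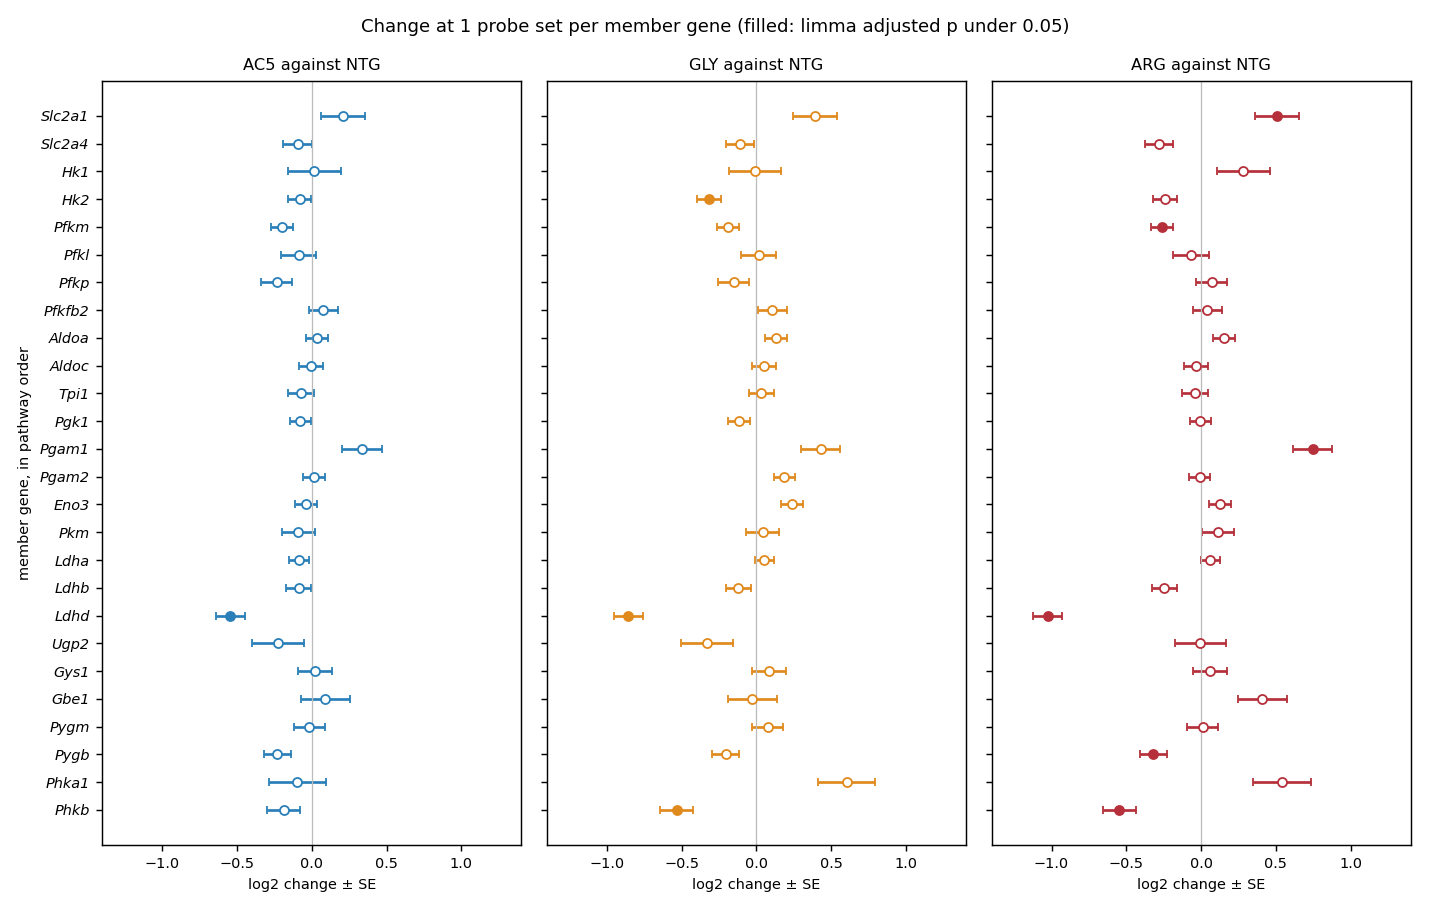
Log2 change ± SE of the 26 member genes at 1 probe set each, in pathway order, for AC5, GLY and ARG against NTG (6 hearts per genotype). Filled points passed limma's adjusted p of 0.05. Ldhd lies far to the left in all 3 panels (-0.55, -0.86 and -1.03), and Pgam1 and Slc2a1 lie to the right. Phka1, which was not called, also lies to the right in GLY (0.60) and ARG (0.54), and most other members lie near 0.

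Promoters are shown for Slc2a1 and Pgam1, the members that rose at the chosen probe set, and for Ldhd and Phkb, which fell at it in both receptor genotypes, so that the opposite movers can be set side by side. Each sequence is the 250 bases before the transcript start on the gene's own strand, from RefSeq on GRCm38.p6: Slc2a1 at chr4:119108495-119108744 (plus strand), Pgam1 at chr19:41911621-41911870 (plus strand), Ldhd at chr8:111630337-111630586 (minus strand) and Phkb at chr8:85840738-85840987 (plus strand). Capitals mark matches, on either strand, to TGACG (the core of cyclic AMP response elements), CACGTG (an E-box) or GGGCGG (a GC box).
Slc2a1: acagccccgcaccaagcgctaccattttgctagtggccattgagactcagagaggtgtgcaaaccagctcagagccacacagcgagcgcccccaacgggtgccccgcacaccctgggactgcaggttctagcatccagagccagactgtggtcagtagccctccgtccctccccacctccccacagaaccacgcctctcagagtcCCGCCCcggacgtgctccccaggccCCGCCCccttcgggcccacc
Pgam1: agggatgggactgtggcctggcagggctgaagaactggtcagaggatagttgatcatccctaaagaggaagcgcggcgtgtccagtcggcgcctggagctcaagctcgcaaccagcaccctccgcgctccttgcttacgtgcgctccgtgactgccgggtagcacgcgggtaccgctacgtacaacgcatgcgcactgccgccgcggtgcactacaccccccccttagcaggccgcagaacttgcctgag
Ldhd: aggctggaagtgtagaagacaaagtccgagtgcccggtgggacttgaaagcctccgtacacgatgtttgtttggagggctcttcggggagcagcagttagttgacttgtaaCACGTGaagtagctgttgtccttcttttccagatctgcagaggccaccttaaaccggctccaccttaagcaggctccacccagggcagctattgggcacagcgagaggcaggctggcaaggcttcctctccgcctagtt
Phkb: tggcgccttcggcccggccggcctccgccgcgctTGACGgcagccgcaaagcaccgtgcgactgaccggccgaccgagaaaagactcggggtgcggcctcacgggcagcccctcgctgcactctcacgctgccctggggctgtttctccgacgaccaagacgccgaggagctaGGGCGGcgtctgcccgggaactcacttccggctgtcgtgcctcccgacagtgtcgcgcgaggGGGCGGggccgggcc

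The Slc2a1 window held 2 GGGCGG matches, both on the opposite strand. The Ldhd window held 1 CACGTG and no other match, and the Phkb window held 1 TGACG and 2 GGGCGG. No match to the 3 motifs was found in the Pgam1 window. Among promoters of 27025 genes, 19.8% held TGACG, 6.86% CACGTG and 35.4% GGGCGG. Among the 25 members with a promoter entry, TGACG was present in 5 (Hk2, Ldha, Pfkfb2, Phkb and Pygb), CACGTG in 4 (Ldha, Ldhd, Pfkfb2 and Pfkm) and GGGCGG in 14. The members with TGACG or CACGTG include genes that fell at a probe set as well as Ldha, which was not called. These are letter matches, not measured binding, and the member without an entry is Slc2a4.

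Ldhd showed the largest change of any member. It encodes the mitochondrial D-lactate dehydrogenase, which oxidises D-lactate rather than the L-lactate made by glycolysis. At probe set 1428613_at the ratio lay between 0.983 and 1.07 in NTG hearts (median 1.03). In AC5 hearts it lay between 0.656 and 0.767 (median 0.706), in GLY hearts between 0.488 and 0.801 (median 0.528), and in ARG hearts between 0.426 and 0.624 (median 0.494). Every heart of each transgenic genotype therefore lay below every NTG heart. On the log2 scale Ldhd fell by 1.03 ± 0.10 in ARG (SE, 2.04-fold, limma adjusted p = 7.74e-08), by 0.86 ± 0.10 in GLY (1.81-fold, 8.99e-06) and by 0.55 ± 0.10 in AC5 (1.46-fold, 0.0133). The second probe set, 1428614_at, fell by 1.11 ± 0.11, 0.80 ± 0.11 and 0.60 ± 0.11 (adjusted p = 1.28e-07, 8.27e-05 and 0.0164), again with no overlap with NTG in any genotype.

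In the first and second sets the Ldhd changes at 1428613_at were -1.08 and -0.98 in ARG, -0.73 and -0.98 in GLY, and -0.59 and -0.50 in AC5. The AC5 call was lost without AC5 replicate 3 at both probe sets (adjusted p = 0.0538 and 0.0579), and at 1428614_at also without NTG replicate 2 (0.0557) or NTG replicate 6 (0.0594). ARG lay below AC5 by 0.48 ± 0.10 on the log2 scale at 1428613_at (adjusted p = 0.00276) and by 0.51 ± 0.11 at 1428614_at (0.00453), with groups that did not overlap at the first and did at the second. Both calls were lost after quantile normalization between arrays (-0.18, adjusted p = 0.614, and -0.15, 0.788). The differences of ARG from GLY (-0.17 and -0.31) and of GLY from AC5 (-0.31 and -0.20) were not called. The ordering from NTG through AC5 and GLY to ARG is thus one of group medians, in which neighbouring transgenic genotypes overlapped or were not called apart.

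**Figure D2:**
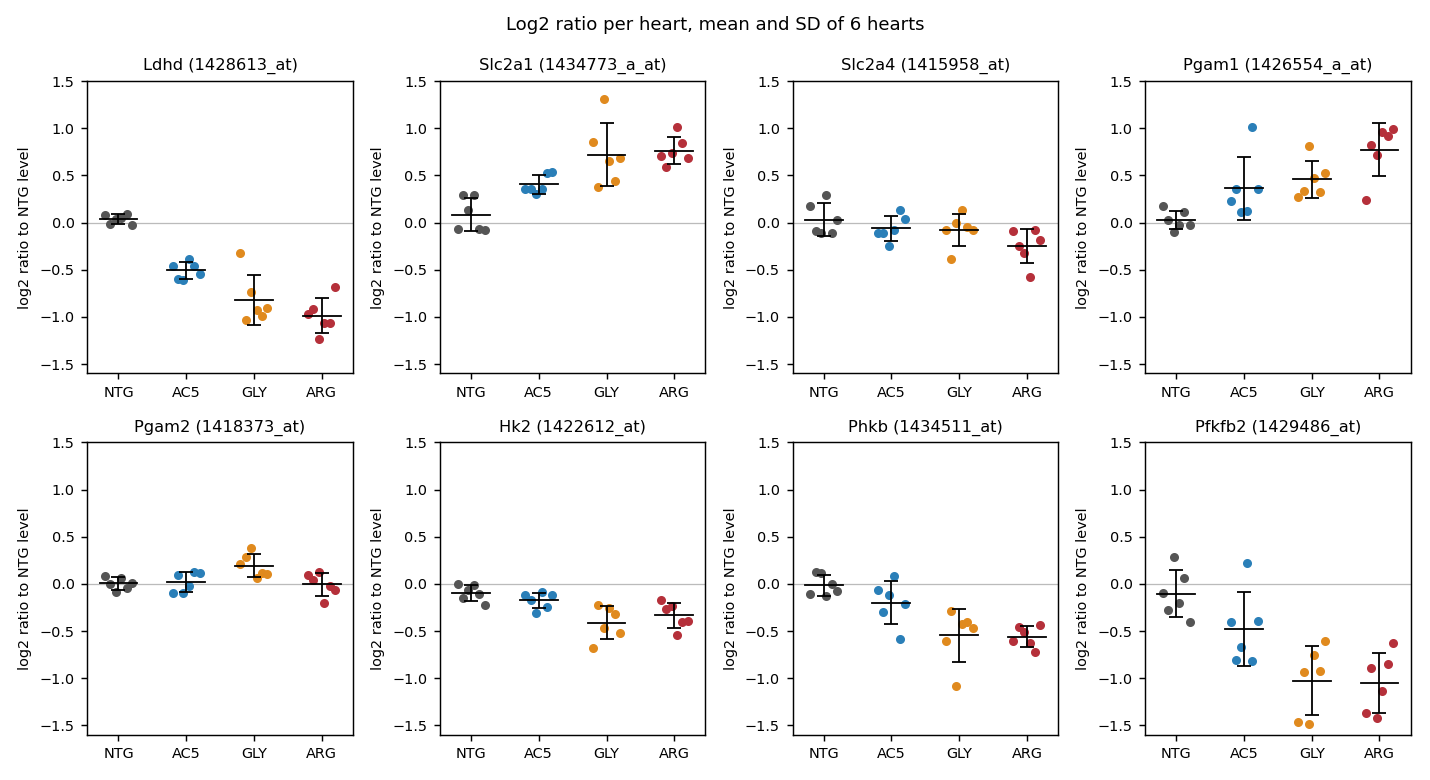
Log2 ratio to the NTG level for every heart at 8 probe sets, 1 panel each, with points for single hearts and bars for the mean and SD of 6. All transgenic hearts lie below all NTG hearts for Ldhd. At the probe sets shown, all GLY and ARG hearts lie above the NTG hearts for Slc2a1 and Pgam1 and below them for Phkb and Pfkfb2. The genotypes overlap for Slc2a4 and Pgam2. At the other Slc2a1 probe sets GLY overlapped NTG, and at the other Pfkfb2 probe sets both receptor genotypes did.

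Among genes of uptake and phosphorylation, the constitutive glucose transporter Slc2a1 was higher in receptor hearts. At 1434773_a_at the ratio ran from 0.946 to 1.23 in NTG (median 1.03) and from 1.23 to 1.45 in AC5 (median 1.28). It ran from 1.30 to 2.47 in GLY (median 1.59) and from 1.51 to 2.01 in ARG (median 1.65). All GLY and ARG hearts exceeded all NTG hearts. Slc2a1 rose by 0.68 ± 0.12 in ARG (1.60-fold, limma adjusted p = 0.000209) and by 0.63 ± 0.12 in GLY (1.55-fold, 0.00172). AC5 hearts also lay just above all NTG hearts, and the log2 change of 0.32 ± 0.12 was not called (0.424).

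The other Slc2a1 probe sets gave smaller changes in the same direction. At 1426599_a_at the log2 rise was 0.57 ± 0.12 in ARG (adjusted p = 0.00165) and 0.42 ± 0.12 in GLY (0.0359), and at 1426600_at it was 0.51 ± 0.15 in ARG (0.0248). The change of 0.39 ± 0.15 in GLY at 1426600_at was not called (0.128). All 3 probe sets thus rose in ARG and 2 of 3 in GLY. The ARG changes were larger in the second set than in the first set at all 3 (0.80 against 0.56, 0.77 against 0.36, and 0.71 against 0.30). After quantile normalization the ARG calls were lost (adjusted p = 0.0555, 0.078 and 0.202), while the GLY call at 1434773_a_at held (0.028).

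Single libraries decided the weaker Slc2a1 calls. Without the 3 low-weight arrays the rise at 1434773_a_at was 0.69 in ARG and 0.45 in GLY, both still called (adjusted p = 9.64e-06 and 0.0102). The GLY call at 1426599_a_at was lost without them (0.32, adjusted p = 0.158), with only GLY and NTG fitted (0.101), with arrays centred on their median (0.0565), after quantile normalization (0.278) and without any 1 of NTG replicates 1, 3 and 5 or GLY replicates 1, 3 and 4. The ARG call at 1426600_at was lost without NTG replicate 3 (0.0681), NTG replicate 5 (0.062), ARG replicate 4 (0.0832) or ARG replicate 5 (0.062). Macrophage markers rose in the same ARG hearts, and their part in the Slc2a1 change was not tested.

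Slc2a4, the insulin-responsive transporter of muscle, was not called in any comparison. At 1415958_at its ratio ran from 0.925 to 1.23 in NTG (median 0.979), from 0.842 to 1.10 in AC5 (median 0.937), from 0.764 to 1.09 in GLY (median 0.958) and from 0.672 to 0.945 in ARG (median 0.861). The genotypes overlapped. The log2 change in ARG was -0.28 ± 0.10 (adjusted p = 0.0646), and at the other probe set, 1415959_at, it was -0.40 ± 0.17 (0.145). Without the 3 low-weight arrays Slc2a4 was called lower in ARG at 1415958_at (-0.31, adjusted p = 0.0409).

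Hexokinase traps glucose in the cell. For Hk1, the broadly expressed form, the ratio at 1437974_a_at was 0.852 to 1.13 in NTG (median 0.972), 0.844 to 1.08 in AC5 (median 1.02), 1.08 to 1.32 in GLY (median 1.15) and 1.12 to 1.49 in ARG (median 1.17). Only the edges of the ARG and NTG ranges touched. Hk1 rose by 0.35 ± 0.08 in ARG at this probe set (1.27-fold, limma adjusted p = 0.00659), with 0.28 in the first set and 0.42 in the second set, while 0.26 ± 0.08 in GLY was not called (0.0776). It also exceeded AC5 by 0.32 ± 0.08 (0.0214), which quantile normalization removed (0.229). The other Hk1 probe set, 1420901_a_at, was not called, with a log2 change of 0.28 ± 0.18 in ARG. There a single GLY heart lay at 0.465, while NTG hearts ran from 0.737 to 1.24, AC5 hearts from 0.876 to 1.18 and ARG hearts from 1.02 to 1.42.

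Hk2, the insulin-regulated form of muscle, was lower in GLY hearts. Its ratio was 0.855 to 1.00 in NTG (median 0.941), 0.809 to 0.940 in AC5 (median 0.904), 0.626 to 0.854 in GLY (median 0.762) and 0.689 to 0.888 in ARG (median 0.798). GLY hearts lay below all NTG hearts, by a narrow margin at the edge. Hk2 fell by 0.32 ± 0.08 in GLY (1.25-fold, adjusted p = 0.018) and its change of -0.24 ± 0.08 in ARG just missed the threshold (0.0528). The GLY call was lost without GLY replicate 1 (0.0557), without the 3 low-weight arrays (-0.24, adjusted p = 0.107), with only GLY and NTG fitted (0.0621) and after quantile normalization (-0.20, 0.257), whereas ARG was called without the low-weight arrays (-0.27, 0.0118).

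In the upper part of glycolysis, 1 of 7 measured genes was called at the chosen probe set. Pfkm, the muscle subunit of phosphofructokinase, had ratios of 0.891 to 1.19 in NTG (median 0.979), 0.814 to 0.933 in AC5 (median 0.882), 0.789 to 0.959 in GLY (median 0.904) and 0.769 to 0.933 in ARG (median 0.843). All 3 transgenic medians were lower than that of NTG, with overlap. Pfkm fell by 0.26 ± 0.07 in ARG (1.20-fold, adjusted p = 0.0235). That call was lost without NTG replicate 1 (0.0793), NTG replicate 4 (0.0684) or ARG replicate 4 (0.0662), with only ARG and NTG fitted (0.0552), and after quantile normalization (0.176).

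The other phosphofructokinase subunits were not called. Pfkp, the platelet subunit, had ratios of 0.799 to 1.08 in NTG (median 1.01), 0.734 to 0.928 in AC5 (median 0.819), 0.767 to 1.17 in GLY (median 0.804) and 0.890 to 1.24 in ARG (median 1.01). Pfkl, the liver subunit, had 0.947 to 1.09 in NTG (median 1.04), 0.920 to 1.05 in AC5 (median 0.932), 0.807 to 1.58 in GLY (median 0.934) and 0.860 to 1.09 in ARG (median 0.966). These are the values at 1416069_at for Pfkp and 1453541_at for Pfkl, and for both the genotypes overlapped. The mean log2 value in ARG hearts varied in sign between probe sets. For Pfkp it was 0.02 at 1416069_at, -0.13 at 1437759_at and 0.20 at 1430634_a_at. For Pfkl it was -0.04 at 1453541_at, 0.16 at 1439148_a_at and 0.06 at 1450269_a_at.

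Pfkfb2 is the cardiac bifunctional enzyme that makes and removes the activator of phosphofructokinase. At 1429486_at, its ratio was 0.758 to 1.22 in NTG (median 0.901), 0.566 to 1.17 in AC5 (median 0.693), 0.358 to 0.656 in GLY (median 0.525) and 0.372 to 0.649 in ARG (median 0.497). Receptor hearts of both kinds lay below every NTG heart. The fall was 0.95 ± 0.17 in ARG (1.93-fold, limma adjusted p = 0.000501) and 0.92 ± 0.17 in GLY (1.90-fold, 0.00222), while -0.37 ± 0.17 in AC5 was not called (0.663). In the first set the changes were -1.20 and -1.27, and in the second set they were -0.69 and -0.58, for ARG and GLY. Quantile normalization removed the GLY call (-0.61, adjusted p = 0.0692) and kept the ARG call (0.0121).

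This was 1 of 4 Pfkfb2 probe sets. At 1422091_at, the probe set used in the gene counts, the log2 change was 0.04 ± 0.10 in ARG and 0.11 ± 0.10 in GLY. At 1422092_at it was -0.05 ± 0.15 and -0.14 ± 0.15, and at 1422090_a_at -0.23 ± 0.19 and -0.30 ± 0.19. None of these was called. The change at 1429486_at therefore stands for the transcripts that this probe set reads, and the labels do not say which those are.

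In the lower part of glycolysis, 1 of 5 measured genes was called. Pgam1, the form of phosphoglycerate mutase found in most tissues, had ratios of 0.936 to 1.13 in NTG (median 1.00), 1.08 to 2.02 in AC5 (median 1.22), 1.20 to 1.76 in GLY (median 1.32) and 1.18 to 1.99 in ARG (median 1.82). All GLY and all ARG hearts exceeded all NTG hearts, and in ARG the lowest heart stood well below the other 5. Pgam1 rose by 0.75 ± 0.13 in ARG (1.68-fold, limma adjusted p = 0.000318), with 0.56 in the first set and 0.94 in the second set. After quantile normalization the rise was 0.48 and still called (0.00644), and without the 3 low-weight arrays it was 0.85 (1.08e-05).

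In GLY the Pgam1 change of 0.43 ± 0.13 was not called (0.0563), although the groups did not overlap. It was called without AC5 replicate 5 (0.0193) or ARG replicate 1 (0.0298), which enter the pooled spread. The AC5 change was 0.34 ± 0.13 and not called (0.51), with 1 AC5 heart at 2.02 and the next highest at 1.282. Pgam1 has processed pseudogenes, and cross-hybridisation of its only probe set was not tested. The macrophage markers that rose in ARG hearts were given above, and their part in the Pgam1 change was not tested either.

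Pgam2, the muscle form, stayed near 1. Its ratio was 0.945 to 1.06 in NTG (median 1.00), 0.934 to 1.09 in AC5 (median 1.02), 1.04 to 1.30 in GLY (median 1.12) and 0.868 to 1.09 in ARG (median 1.01). No comparison was called. Eno3, the muscle enolase, had ratios of 1.08 to 1.37 in GLY against 0.959 to 1.06 in NTG, without overlap. Its log2 change in GLY was 0.24 ± 0.07 and was not called (0.0612).

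Of the lactate genes, Ldhd was described above, and the subunits of L-lactate dehydrogenase were not called. Ldha, the subunit that predominates in glycolytic tissue, had ratios of 0.959 to 1.08 in NTG (median 0.994), 0.861 to 1.02 in AC5 (median 0.953), 0.928 to 1.16 in GLY (median 1.06) and 1.00 to 1.10 in ARG (median 1.05). Ldhb, the subunit that predominates in heart, had at 1416183_a_at 0.939 to 1.09 in NTG (median 0.997), 0.792 to 1.10 in AC5 (median 0.957), 0.778 to 1.12 in GLY (median 0.942) and 0.811 to 0.940 in ARG (median 0.827). The ARG and NTG ranges of Ldhb met at a single heart, ARG replicate 5. The log2 change of Ldhb in ARG was -0.25 ± 0.08 (adjusted p = 0.0613), and at its other 3 probe sets it was -0.18, -0.20 and -0.21 (0.0763, 0.0729 and 0.0528). Without the 3 low-weight arrays Ldhb was called lower in ARG at 1416183_a_at (-0.24, 0.0438).

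Among 7 glycogen genes, Phkb fell in both receptor genotypes and Pygb fell in ARG. Phkb encodes the regulatory beta subunit of phosphorylase kinase. Its ratio was 0.916 to 1.09 in NTG (median 0.974), 0.668 to 1.06 in AC5 (median 0.892), 0.471 to 0.819 in GLY (median 0.733) and 0.608 to 0.739 in ARG (median 0.679). No GLY or ARG heart reached the NTG range. The fall was 0.55 ± 0.11 in ARG (1.46-fold, limma adjusted p = 0.00131) and 0.53 ± 0.11 in GLY (1.45-fold, 0.00462), and neither call depended on any 1 array. In the first and second sets the changes were -0.57 and -0.53 in ARG, and -0.70 and -0.36 in GLY. Quantile normalization kept both calls (0.00215 and 0.0216), and so did leaving out the 3 low-weight arrays (-0.54 and -0.38, adjusted p = 0.000225 and 0.033).

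Phka1, the alpha subunit of muscle phosphorylase kinase, was not called over all arrays. At 1422743_at its ratio was 0.879 to 1.14 in NTG (median 1.01), 0.775 to 1.32 in AC5 (median 0.905), 0.816 to 2.42 in GLY (median 1.63) and 1.16 to 2.02 in ARG (median 1.37). ARG hearts lay above all NTG hearts and GLY hearts were widely spread. Neither the log2 change of 0.54 ± 0.19 in ARG (0.0757) nor that of 0.60 ± 0.19 in GLY (0.0632) was called. Both were called without GLY replicate 1 (adjusted p = 0.0258 and 0.00711) and with array weights (0.0254 and 0.0057), and the GLY change also without the 3 low-weight arrays (0.72, 0.0152) or without GLY replicate 2 (0.0457). The other 2 probe sets gave 0.28 and 0.34 in ARG and 0.25 and 0.35 in GLY, also not called. The 2 kinase subunits thus differed in the sign of their measured change in both receptor genotypes, and that difference was not tested.

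Pygb, the brain isoform of glycogen phosphorylase, had ratios of 0.912 to 1.18 in NTG (median 0.962), 0.747 to 0.984 in AC5 (median 0.845), 0.738 to 0.956 in GLY (median 0.894) and 0.714 to 0.946 in ARG (median 0.767). Its ranges overlapped NTG in every genotype. Pygb fell by 0.32 ± 0.09 in ARG (1.25-fold, adjusted p = 0.0209). The call was lost without NTG replicate 4 (0.066), ARG replicate 2 (0.0532) or ARG replicate 3 (0.0576), and after quantile normalization (0.129). Pygm, the muscle isoform, was not called and had ratios of 0.846 to 1.22 in NTG (median 0.917), 0.878 to 1.02 in AC5 (median 0.997), 0.798 to 1.28 in GLY (median 1.06) and 0.924 to 1.13 in ARG (median 0.983).

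The remaining glycogen members were not called. Gbe1, the branching enzyme, had ratios of 1.02 to 1.89 in ARG (median 1.34) against 0.898 to 1.07 in NTG (median 1.04), and a log2 change of 0.41 ± 0.16 (0.132). It was called without the 3 low-weight arrays (0.45, adjusted p = 0.00796). Ugp2, which makes the glucose donor for glycogen, ran from 0.470 to 1.23 in GLY at 1426461_at, the widest of its groups. Gys1, the muscle glycogen synthase, changed by 0.06 ± 0.11 in ARG and 0.08 ± 0.11 in GLY at 1416737_at. At the 1 probe set chosen per gene, the 17 members with no called probe set had log2 changes of -0.28 to 0.54 in ARG, -0.33 to 0.60 in GLY and -0.23 to 0.09 in AC5.

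Isoform pairs were then compared within each heart, as log2 of the first isoform minus log2 of the second. This asks whether the isoforms changed unequally, and says nothing of which is more abundant. Each isoform was read only at the 1 probe set chosen per gene. For Slc2a1 that was 1426600_at, and for Hk1 it was 1420901_a_at, which was not called alone. The listed pairs with both isoforms measured numbered 8, and each was tested in 4 comparisons by an exact two-sided permutation test over hearts, whose smallest possible p is 0.00216. Adjusted over the 32 tests, 14 differences were called. No other gene pairs were tested, so the share called among pairs at large is not known. A called difference can arise where only 1 isoform changed. As the values of single isoforms above enter these differences, they are not independent of them. In particular, 3 of the 4 comparisons share the NTG hearts.

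The Slc2a1 minus Slc2a4 difference ran from -0.09 to 0.17 in NTG hearts, from -0.06 to 0.48 in AC5, from 0.29 to 0.85 in GLY and from 0.36 to 1.58 in ARG. No GLY or ARG heart fell within the NTG range. Relative to NTG it was higher by 0.79 ± 0.18 in ARG and by 0.50 ± 0.09 in GLY (exact permutation p = 0.00216 and adjusted p = 0.0231 for each). In AC5 it was higher by 0.305 ± 0.09 (exact p = 0.0108, adjusted p = 0.0433), a call lost after quantile normalization (0.0693) and without any 1 of 9 arrays. Both receptor calls were kept whichever array was left out. The difference was larger in the second set (1.06 in ARG and 0.62 in GLY) than in the first set (0.52 and 0.38). ARG and GLY were not called apart (0.29 ± 0.19, adjusted p = 0.242).

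For Pgam1 minus Pgam2 the range was -0.10 to 0.16 in NTG, 0.15 to 0.88 in AC5, 0.05 to 0.44 in GLY and 0.15 to 1.17 in ARG. Each transgenic range overlapped that of NTG, in ARG by a single low heart. The difference was higher than in NTG by 0.76 ± 0.16 in ARG and by 0.32 ± 0.12 in AC5 (exact permutation p = 0.00433 and adjusted p = 0.0231 for each). Both were lost when NTG replicate 4 was left out (0.052 and 0.0577). In GLY it was higher by 0.24 ± 0.08 (exact p = 0.0216, adjusted p = 0.0495), and ARG exceeded GLY by 0.51 ± 0.17 (exact p = 0.0173, adjusted p = 0.0495). The last pair of calls was fragile, since leaving out 21 and 22 of the 24 arrays, 1 at a time, removed them.

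**Figure D3:**
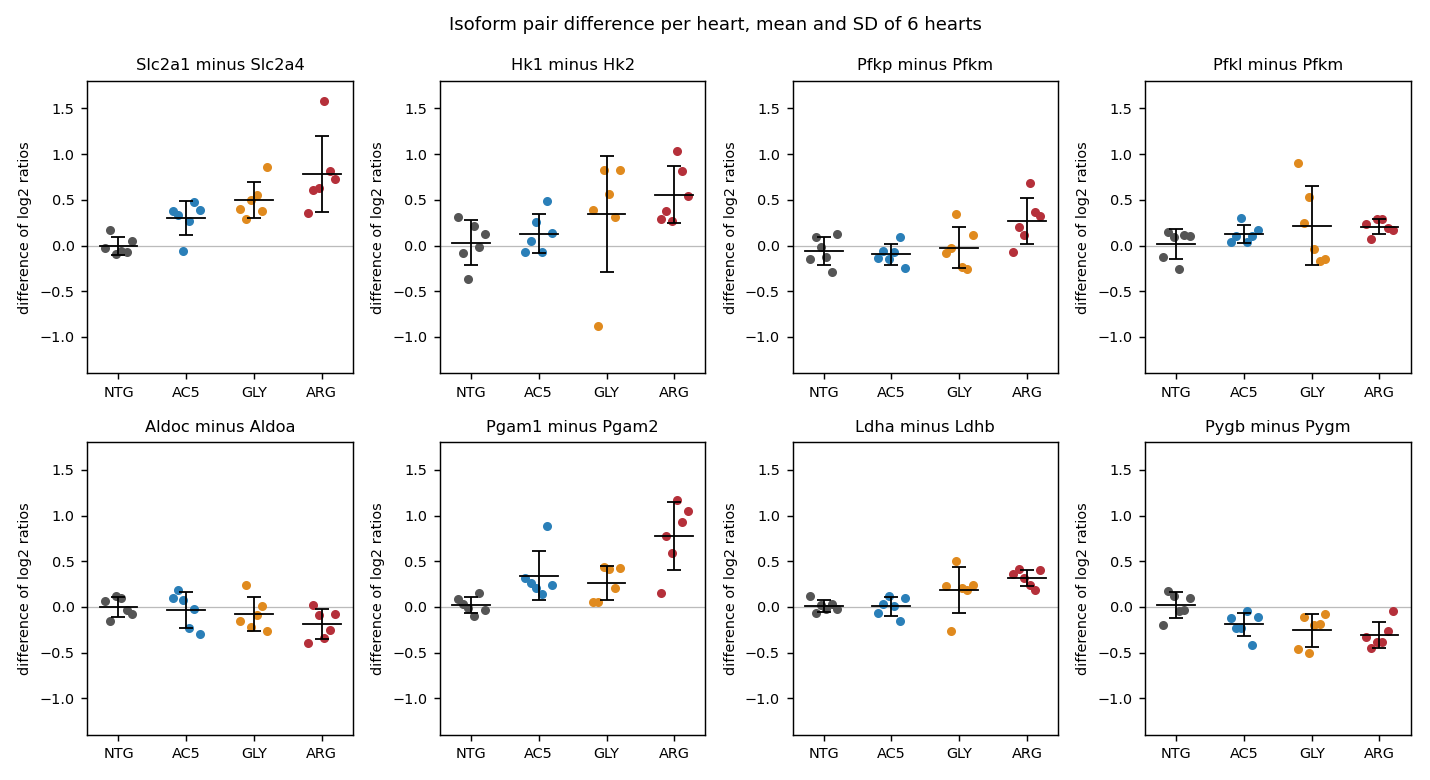
Difference of log2 ratios between isoforms in each heart for 8 pairs, with the mean and SD of 6 hearts per genotype. Points for Slc2a1 minus Slc2a4 reach 0.85 in GLY and 1.58 in ARG against at most 0.17 in NTG, and those for Pygb minus Pygm lie mostly below 0 in the transgenic genotypes.

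For Ldha minus Ldhb the difference ran from -0.06 to 0.12 in NTG and from 0.18 to 0.41 in ARG, without overlap. It was higher in ARG by 0.31 ± 0.05 (exact permutation p = 0.00216, adjusted p = 0.0231), with 0.34 in the first set and 0.28 in the second set. The call held without any 1 array and after quantile normalization (0.27, adjusted p = 0.0416). In GLY, where hearts ran from -0.27 to 0.51, and in AC5, the pair was not called (0.17 ± 0.11 and 0.00 ± 0.05). Neither isoform alone was called in ARG.

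Pygb minus Pygm was lower than in NTG in all 3 transgenic genotypes. It ran from -0.20 to 0.18 in NTG, -0.41 to -0.05 in AC5, -0.50 to -0.08 in GLY and -0.45 to -0.04 in ARG, with overlap. The difference was -0.33 ± 0.08 in ARG (exact permutation p = 0.00433, adjusted p = 0.0231), -0.28 ± 0.09 in GLY (0.0152 and 0.0495) and -0.21 ± 0.08 in AC5 (0.0216 and 0.0495). The ARG call was lost without NTG replicate 4 (0.0554). The others were lost without any 1 of 18 and 21 arrays, some of them outside the comparison. All 3 were lost after quantile normalization (0.101, 0.104 and 0.101).

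Hk1 minus Hk2 was higher in ARG by 0.52 ± 0.16 (exact permutation p = 0.00649, adjusted p = 0.0297). Hearts ran from 0.27 to 1.04 in ARG and from -0.37 to 0.31 in NTG. That call was lost without any 1 of NTG replicates 3 to 6 (highest adjusted p = 0.0693) and after quantile normalization (0.101). Pfkp minus Pfkm (0.33 ± 0.12) and Pfkl minus Pfkm (0.19 ± 0.07) were called in ARG at an adjusted p of 0.0495. They were lost without any 1 of 21 and 20 arrays, some of them outside the comparison. For Pfkp the difference was 0.11 in the first set and 0.55 in the second set. Aldoc minus Aldoa was not called (-0.19 ± 0.08 in ARG, exact permutation p = 0.0411, adjusted p = 0.0877).

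The receptor forms were also compared directly. Between ARG and GLY, 0 of 26 members were called by limma, with 4 at an unadjusted p under 0.05, where 1.9% of all genes were called. Their median log2 difference was -0.04, against -0.03 over all genes. Of the 57 probe sets 0 were called, against 1.51% of all probe sets. Between ARG and AC5 only Ldhd was called at the gene probe set (6.34% of all genes), and 1 of the 57 probe sets rose and 2 fell (4.93% of all probe sets). Between GLY and AC5, 0 members (0.857% of all genes) and 0 of the 57 probe sets (0.693%) were called, with 7 members at an unadjusted p under 0.05. Hearts spread more widely in GLY, where the median member SD was 0.199 on the log2 scale, than in ARG (0.136), AC5 (0.142) or NTG (0.114). As 1 spread is pooled over genotypes, the SE is too small for GLY.

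A further 43 genes of glucose, glycogen and pyruvate metabolism were counted at the 1 probe set chosen per gene. Of these, 5 rose and 6 fell in ARG, 4 fell in GLY and 2 fell in ARG against GLY. None was called in AC5 (unadjusted p under 0.05 for 5). Of all genes, 11.3%, 5.45%, 1.9% and 0.176% were called in ARG, in GLY, in ARG against GLY and in AC5. Counting any probe set, 15 of the 43 were called in ARG, 6 in GLY and 3 in ARG against GLY. Of their 83 probe sets, 10 rose and 10 fell in ARG (9.67% of all probe sets called). In GLY 3 rose and 6 fell (5.08%), and 3 fell in ARG against GLY (1.51%). The medians of the 43 were 0.08 in ARG, 0.06 in GLY and -0.01 in AC5, against -0.01, 0.02 and -0.01 over all genes. The largest fall at the chosen probe sets was that of Fbp2, the muscle fructose bisphosphatase, which works against phosphofructokinase. Its ratio was 0.968 to 1.13 in NTG (median 1.06), 0.566 to 0.987 in AC5 (median 0.756), 0.528 to 0.903 in GLY (median 0.759) and 0.328 to 0.578 in ARG (median 0.497). ARG and GLY hearts lay below all NTG hearts, and the GLY and AC5 medians lay between those of NTG and ARG. Fbp2 fell by 1.14 ± 0.13 in ARG (limma adjusted p = 1.44e-06) and by 0.52 ± 0.13 in GLY (0.0221).

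Of that list, 2 genes were called between the receptor forms at the chosen probe set. Fbp2 differed most and was lower in ARG than in GLY by 0.62 ± 0.13 on the log2 scale (adjusted p = 0.0135). The ranges overlapped and quantile normalization removed that call (0.371). The GLY call against NTG was lost without NTG replicate 3 (0.0539) or GLY replicate 3 (0.0553), and after quantile normalization (0.0764). The largest rise at the chosen probe sets was that of Stbd1, which anchors glycogen to membranes. Its ratio was 1.60 to 2.62 in ARG (median 1.67) against 0.772 to 1.14 in NTG (median 1.03), a log2 rise of 0.93 ± 0.18 (adjusted p = 0.000999), and in AC5 and GLY single hearts reached 2.18 and 1.96.

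The other genes of that list called at the chosen probe set are named after their values were seen. In ARG the lactate transporters Slc16a3 (0.49 ± 0.11) and Slc16a1 (0.31 ± 0.09) rose, as did the phosphoglucomutases Pgm1 (0.52 ± 0.12) and Pgm2 (0.30 ± 0.08). The Pgm1 rise is against NTG. At another Pgm1 probe set, 1451149_at, the ARG change in a different comparison, against AC5, was negative. It was called only with some arrays left out (-0.23, limma adjusted p = 0.0489 without GLY replicate 3). Tbc1d4, a regulator of Slc2a4 trafficking, fell by 0.51 ± 0.09 in ARG and 0.39 ± 0.09 in GLY, and Pdk1, an inhibitory kinase of pyruvate dehydrogenase, fell by 0.46 ± 0.08 and 0.36 ± 0.08. Ppp1r3b, which targets protein phosphatase to glycogen, fell by 0.32 ± 0.10 and 0.50 ± 0.10. In ARG the liver glycogen phosphorylase Pygl (-0.40 ± 0.08) and Nhlrc1, the ubiquitin ligase malin (-0.45 ± 0.10), fell too. Nhlrc1 was the other gene called lower in ARG than in GLY at the chosen probe set (-0.41 ± 0.10, adjusted p = 0.0392). That call was lost without any 1 of 9 arrays. Ppp1r3b in ARG (adjusted p = 0.046) was lost without any 1 of 16 arrays and Slc16a1 (0.0282) without any 1 of 6. Quantile normalization removed all 4 GLY calls, and in ARG those of Pgm2, Ppp1r3b, Slc16a1 and Slc16a3.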

How the data were processed

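Hearts of 24 mice were measured on Affymetrix arrays from 5 micrograms of total RNA extracted with Trizol, 1 array per heart, per the labels' protocols. The authors processed the arrays with RMA, per the submitters' processing notes, which give no version. What was deposited is a linear ratio for each probe set and heart. That they were divided by the NTG level was read from the values and is not stated. They carry no signal level, so no filter on dim probe sets was possible, and no depth applies to arrays, whose number limits the precision (median SE 0.0992 on the log2 scale).

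Of 45101 probe sets, 64 controls were left out. Log2 was taken first. A single limma model (version 3.58.1, R 4.3.3) with 1 mean per genotype covered the 24 arrays, with Benjamini-Hochberg adjustment over 45037 probe sets. Calls are at an adjusted p under 0.05, and "rose" or "fell" is used of calls only. For gene counts the probe set was chosen by suffix, then lowest number. Of the tested probe sets 34945 had 1 gene symbol, 932 several and 9160 none. Isoform pairs were tested by exact permutation, and 2 listed pairs had an isoform that was not measured. The p-values measure the spread between hearts that the design text calls biological replicates. The fit was tested on simulated data.

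The members, the further pathway genes and the marker lists were chosen with earlier results of these data known. Members with a called probe set or in a called pair were described in full, and of the other pathway genes the largest called rise and fall. Further marker lists gave 2 of 12 cardiomyocyte markers falling in ARG, 1 falling in GLY and 1 rising in AC5. They also gave 1 of 12 skeletal muscle markers falling in ARG, 2 of 6 adipocyte markers falling in ARG and in GLY, and 1 of 9 nerve markers rising in ARG and in GLY. The shares of all genes called against NTG were 11.3% in ARG, 5.45% in GLY and 0.176% in AC5. Of 6 red blood cell markers limma called 0 in each transgenic genotype, with an unadjusted p under 0.05 for 0 in ARG and AC5 and 1 in GLY. Python 3.11.15 served for the tables (pandas 2.3.3 and numpy 2.4.6) and for the plots (matplotlib 3.10.9). Alternatives were quantile normalization, median centring, the replicate number as a block, the set as a term or alone, array weights, only the genotypes compared, other probe set rules, and each array left out. Leaving out the 3 low-weight arrays was added after seeing the data.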

Additional observations from a re-analysis of the deposited data

Results flagged for a closer look

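Single hearts stood apart from the other 5 of their genotype in 4 of the 84 groups of values tested, judged by the gap to the nearest heart over the range of the group. Chance alone marks about 1 in 20 groups. For Pgam1, AC5 replicate 5 had a ratio of 2.016 while the other AC5 hearts lay between 1.078 and 1.282. In ARG, replicate 1 had a Pgam1 ratio of 1.18 while the others lay between 1.638 and 1.989, and this array also had a low weight. For Ldhb at 1416183_a_at, ARG replicate 5 lay at 0.94 and the others between 0.811 and 0.852. For Hk1 at 1437974_a_at, AC5 replicate 3 lay at 0.844 and the others between 0.988 and 1.076.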

How the results depend on the processing

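No called change of a named member reversed in any alternative or with any 1 array left out. Over all such changes, comparisons and settings, a call was lost 43 times under the alternatives and 24 times with an array left out, and one was gained 32 and 38 times. The 6 member genes called in ARG against NTG became 3 after quantile normalization, 1 in the first set, and 10 with array weights or without the 3 low-weight arrays. The 3 in GLY against NTG became 1 in the second set and 6 with array weights. The 1 in AC5 against NTG became 0 within either set. The 1 in ARG against AC5 became 0 after quantile normalization or in the first set, 2 with the set as a term, 3 with only those genotypes fitted, and 5 with array weights or without the low-weight arrays. The 0 in GLY against AC5 became 2 with array weights or without those arrays. Of 14 isoform pair calls 5 were left after quantile normalization.

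Leaving out 1 array at a time gave 4 to 9 calls in ARG, 3 to 5 in GLY and 0 to 1 in AC5 against NTG, 0 to 1 in ARG against GLY, 1 to 4 in ARG against AC5 and 0 to 2 in GLY against AC5. It gave 3 to 15 pair calls, with 3 when NTG replicate 4 was left out. Over all probe sets quantile normalization lowered the calls from 4355 to 2400 in ARG and from 2286 to 633 in GLY. In AC5 against NTG it raised them from 64 to 398. The Ldhd change at 1428613_at went from -1.03 to -0.86 in ARG and from -0.86 to -0.79 in GLY, but from -0.55 to -0.69 in AC5. Quantile normalization gives every array the same distribution of values, and here it was applied to log2 ratios to the NTG level. It can narrow or widen real differences between genotypes, so neither a lost nor a gained call decides whether a change is real. The cause of these shifts was not tested.

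The labels do not say that a replicate number pairs hearts, and in no comparison did all 6 same-numbered pairs of deviations correlate above 0.1. The correlations ran from -0.05 to 0.02 for ARG and NTG, -0.29 to 0.14 for GLY and NTG, -0.24 to 0.19 for AC5 and NTG and -0.08 to 0.32 for GLY and AC5. They ran from 0.05 to 0.49 for ARG and GLY and -0.07 to 0.21 for ARG and AC5, with 5 of 6 above 0.1 in each. With the replicate number as a block, limma called 7, 3 and 1 members in ARG, GLY and AC5 against NTG. In the paired sign-flip test, with a smallest exact p of 0.0312, 0 pair differences were called. After adjustment over 32 tests a call would need most of them to sit at that smallest p. The test could therefore hardly call any pair, and no conclusion on pairing is drawn from it.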
